A study of Mus musculus with 4 samples.

Results

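The genes described here are those whose mouse symbol is Gpr followed by a number, with or without a letter (for example Gpr151 or Gpr137b), except Gpr34. This naming rule found 94 genes among the 21883 features of the 2 deposited tables, and each of the 94 is listed in both tables. Expression was measured by RNA sequencing in young adult male wild-type mice (strain given as BL6/C57) 7 days after the sciatic and femoral nerves were cut on the left side. The 4 libraries came from dorsal root ganglia (DRG) at lumbar levels 4 to 6 and from the lumbar dorsal spinal cord, each taken on the cut side (ipsilateral) and on the opposite side (contralateral). There was 1 library in each of the 4 groups, and the contralateral side came from mice with a cut nerve, so it is a reference within operated mice and not uninjured tissue. The sources used here do not say whether a library pooled several mice.

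G protein-coupled receptors cross the cell membrane in a bundle of helices and, on binding a ligand, activate G proteins inside the cell, which raise or lower second messengers such as cyclic AMP and calcium. The Gpr symbols were given to receptors found by sequence before a ligand was known, which is why they are called orphan receptors. Many have since been paired with protons, fatty acids, other lipids or peptides, the adhesion receptors have been recognised as a family of their own with long extracellular parts, and a few proteins with a Gpr name are transporters or channel-like proteins of internal membranes. In the ganglia, such receptors can set the excitability of sensory neurons or act in the glia and immune cells around them. All 94 symbols were matched to a RefSeq gene, and 22 now carry another symbol, 16 of them an adhesion receptor name beginning with Adgr. The word orphan in the set's usual name is therefore only in part correct, and the set is a set by name.

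Levels are given in FPKM (fragments counted for a gene, scaled by transcript length and library size), as the authors deposited them. A gene counted as measured in a tissue at 1 FPKM or more in either library. The difference between sides is the log2 of (ipsilateral + 1) over (contralateral + 1), called the log2 ratio below, and a gene passed 2-fold where this reached 1 in size. Adding 1 FPKM makes the differences of weakly expressed genes look smaller. Plain folds are ratios of the deposited FPKM, with a 95% interval from the standard error behind the authors' test statistic. Each group is 1 library, so replicates cannot check any difference, and neither that interval nor the authors' q-value includes variation between mice.

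The libraries within a tissue had similar totals, with a summed FPKM of 431795 contralaterally and 442298 ipsilaterally in DRG, and 425636 and 442196 in cord. The 10 sensory neuron markers checked were all measured in DRG. In contralateral cord the sensory neuron genes Scn10a, Avil and Trpv1 and the Schwann cell gene Egr2 were listed at 0. All 10 myeloid markers, genes of macrophages and microglia, were above 0 on the log2 scale in both tissues, with a summed FPKM of 46.1 contralaterally and 121 ipsilaterally in DRG, and 62.3 and 272 in cord. None of the 10 T and B cell markers reached 1 FPKM in either tissue. In whole tissue, fewer cells of a type and less RNA per cell cannot be told apart.

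Of the 94 genes, 45 were measured in DRG and 51 in cord. Both tissues measured 38 of them, 7 were measured in DRG only and 13 in cord only. The other 36 stayed under 1 FPKM in all libraries, and 6 of these (Gpr31c, Gpr50, Gpr110 and Gpr142 among them) were listed at 0 throughout. Levels were mostly low, since 14 genes reached 10 FPKM in either DRG library and 15 did so in cord. The authors' error was accordingly wide. Its median was 0.33 on the log2 scale for the measured members in DRG against 0.29 for all measured features, and 0.41 against 0.32 in cord.

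In DRG the measured members did not move together. Their median log2 ratio was 0.02, beside 0.05 over all 13137 measured features, and 24 of 45 were above 0 (53.3%, beside 56.1% of all measured features). Of the 45, 3 were at least 2-fold higher ipsilaterally (6.67%), where the share of all measured features was 3.04%. A single member was at least 2-fold lower (2.22%, beside 0.784% of all measured features). The authors' deposited table calls 6 members significantly higher, out of 53 that it tested. Over all features tested it calls 4.64% higher. It calls 2 members lower, and 1.9% of all features tested. The members concerned were Gpr151, Gpr133, Gpr19, Gpr153, Gpr85 and Gpr77, called higher, and Gpr62 and Gpr64, called lower.

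**Figure D1:**
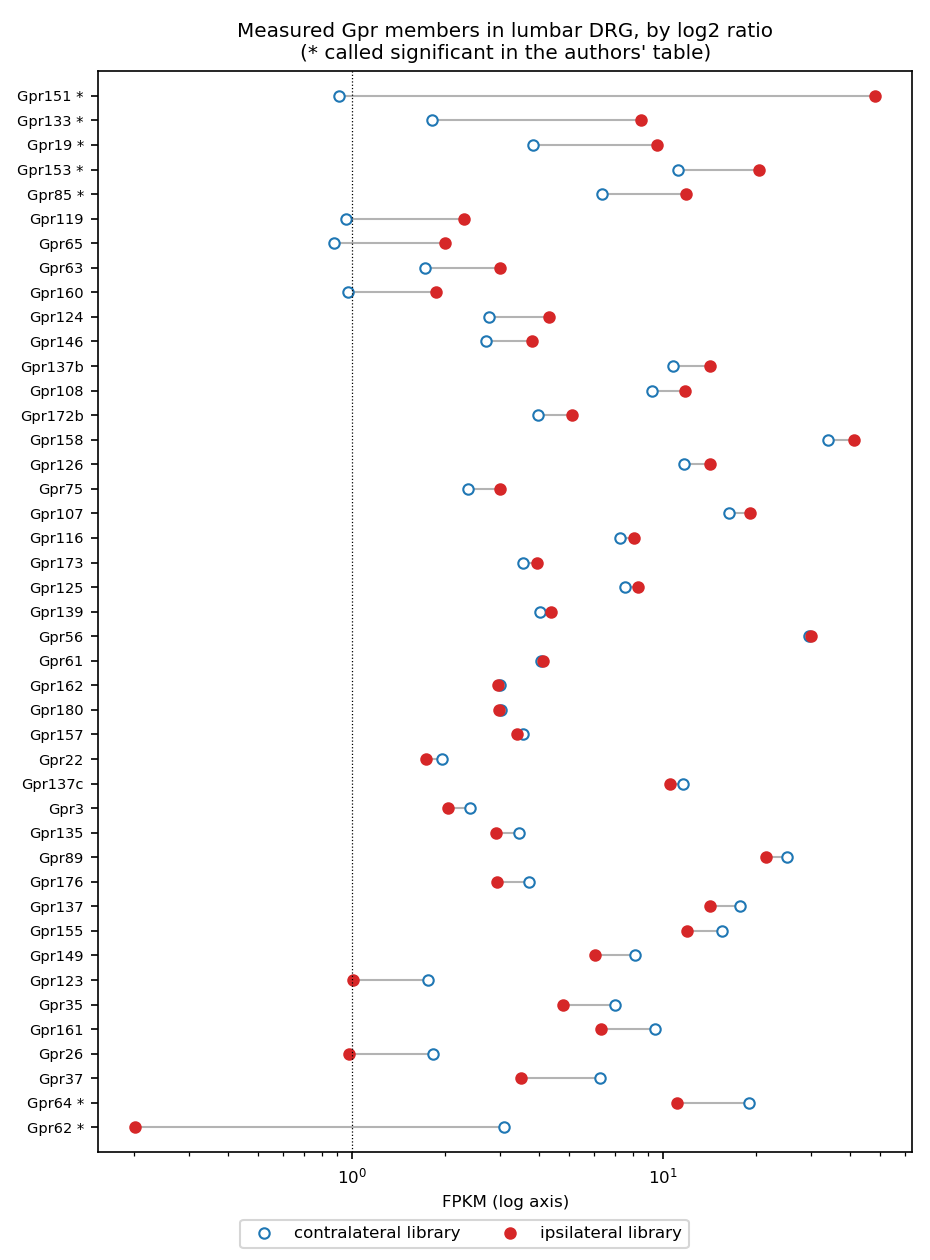
Deposited FPKM (log axis) of 43 members measured in DRG, one row per gene, ordered by log2 ratio; open circles are the contralateral library, filled circles the ipsilateral library, and an asterisk marks a call in the authors' table. Gpr151 spans 0.907 to 48.2 FPKM at the top and Gpr62 spans 3.09 to 0.202 FPKM at the bottom, while most other pairs lie close together.

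Gpr151 is an orphan receptor best known from neurons of the habenula and from injured sensory neurons. It stood at 0.907 FPKM in contralateral and 48.2 FPKM in ipsilateral DRG, a log2 ratio of 4.69. The fold was 53.1, with an interval of 26.7 to 106, and the authors' deposited table lists its q as 0. The ipsilateral library was the high one, and Gpr151 ranked 3 among the members by mean level in DRG. In cord it was at 0.312 FPKM contralaterally and 0.306 FPKM ipsilaterally, under the level that counted as measured. Its mm9 position is chromosome 18, from 42737673 to 42739306.

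Gpr133, an adhesion receptor that raises cyclic AMP (now Adgrd1), was at 1.82 FPKM in contralateral and 8.49 FPKM in ipsilateral DRG, a log2 ratio of 1.75. The fold of 4.68 had an interval of 2.98 to 7.36, with q = 5.04e-09 in the authors' deposited table. In cord it was listed at 0 contralaterally and was at 0.22 FPKM ipsilaterally, so the gene was measured in the ganglia only. It lies on mm9 chromosome 5 from 129602624 to 129710474. Gpr19, a class A orphan receptor, was at 3.82 FPKM contralaterally and 9.6 FPKM ipsilaterally, a log2 ratio of 1.14. Its fold was 2.51 (interval 1.55 to 4.08), with q = 0.00651 in the authors' deposited table. Gpr19 was at 5.77 FPKM in contralateral and 5.27 FPKM in ipsilateral cord, so its 2 cord libraries were close.

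Gpr153 and Gpr85 were called higher in DRG without reaching 2-fold. Gpr153, an orphan receptor related in sequence to Gpr162, was at 11.2 FPKM contralaterally and 20.4 FPKM ipsilaterally (log2 ratio 0.81, interval of the fold 1.26 to 2.63). Its relative Gpr162 was at 2.99 FPKM contralaterally and 2.96 FPKM ipsilaterally. Gpr85 belongs with Gpr27 and Gpr173 to a small family of receptors that are strongly conserved in sequence and found mainly in brain. It was at 6.39 FPKM in contralateral and 11.9 FPKM in ipsilateral DRG (log2 ratio 0.81, interval of the fold 1.23 to 2.82). Gpr173 was at 3.55 and 3.95 FPKM in the same libraries, and Gpr27 at 0.733 and 0.26 FPKM. The q-values in the authors' deposited table were 0.0289 for Gpr153 and 0.0482 for Gpr85. Among these relatives, then, the sides differed by different amounts, and whether the relatives differ from each other was not tested.

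Gpr77 encodes C5ar2, a second receptor for the complement fragment C5a. It was called higher although both DRG libraries were under 1 FPKM, at 0.26 contralaterally and 0.907 ipsilaterally. Its fold of 3.49 had an interval of 1.62 to 7.53, with q = 0.028 in the authors' deposited table. In cord it was at 0.177 FPKM contralaterally and 0.695 FPKM ipsilaterally, which the authors' deposited table leaves uncalled (q = 0.156). The ipsilateral library was the higher in both tissues, as it was for the 10 myeloid markers. The part of myeloid cells in this difference was not tested.

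Gpr62, a class A receptor related to Gpr61 and known from oligodendrocytes, had the lowest log2 ratio in DRG. It was at 3.09 FPKM contralaterally and 0.202 FPKM ipsilaterally, a log2 ratio of -1.77. This is 15.4-fold lower ipsilaterally, and the interval of the ipsilateral over contralateral fold was 0.0253 to 0.167, with q = 1.93e-06 in the authors' deposited table. Gpr61 was at 4.08 and 4.12 FPKM in the same libraries. The entry for Gpr62 (mm9 chromosome 9, 106356187 to 106368271) is shared with Pcbp4, an RNA-binding protein gene, so reads of the overlapping genes may be split between them. Pcbp4 was at 38.0 FPKM contralaterally and 36.8 FPKM ipsilaterally. Of the 8 genes listed as oligodendrocyte lineage markers, 5 were measured in DRG (Pdgfra, Cspg4, Mbp, Mag and Cnp). Of these, 4 were above 0, with a median log2 ratio of 0.06. Pdgfra was called higher, at 3.08 FPKM contralaterally and 6.07 FPKM ipsilaterally. Olig1, Olig2 and Mog stayed under 1 FPKM and were lower ipsilaterally, without a call. Mog was at 0.711 FPKM contralaterally and 0.032 FPKM ipsilaterally (interval of the fold 0.00575 to 0.362). Olig1 was at 0.194 FPKM and Olig2 at 0.102 FPKM contralaterally, and both were listed at 0 ipsilaterally. The summed FPKM of the list was 822 contralaterally and 846 ipsilaterally. Most of this was Mbp, at 727 and 757 FPKM, a myelin gene that in DRG is not particular to oligodendrocytes. The part of oligodendrocyte lineage or Schwann cells in the difference of Gpr62 was not tested. Gpr62 is the only member at least 2-fold lower in DRG. At a pseudocount of 3 FPKM no member is, beside 0.335% of all measured features.

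Gpr64, an adhesion receptor best known from the epididymis (now Adgrg2), was at 19 FPKM in contralateral and 11.1 FPKM in ipsilateral DRG, a log2 ratio of -0.72. Its interval was the narrowest among the called members, at 0.490 to 0.702 for a fold of 0.586, with q = 8.71e-07 in the authors' deposited table. In cord it was below 1 FPKM on both sides (0.888 and 0.617). The sensory neuron markers were lower as a list in ipsilateral DRG, with 9 of 10 below 0, a median log2 ratio of -0.43 and a summed FPKM of 2656 contralaterally and 2569 ipsilaterally. The part of sensory neurons in the difference of Gpr64 was not tested.

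**Figure D2:**
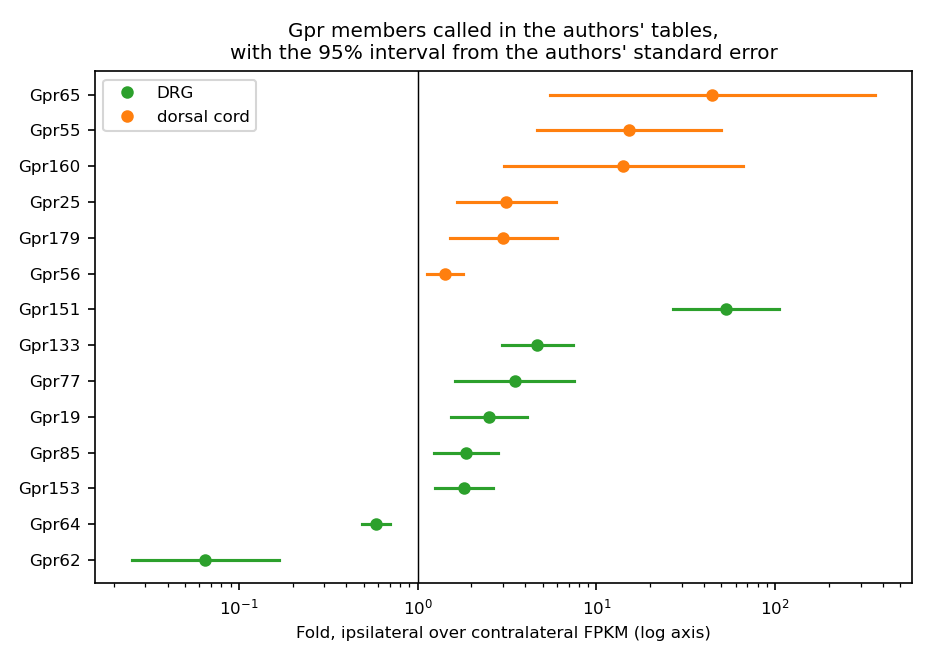
Fold of ipsilateral over contralateral FPKM (log axis) for 14 calls on members in the authors' tables, 8 in DRG and 6 in cord; points are folds and bars are 95% intervals from the authors' standard error. The bars run from 0.490 to 0.702 for Gpr64 in DRG, the narrowest, to 5.48 to 361 for Gpr65 in cord, the widest.

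Taken by role, the adhesion receptors had 8 of 16 members measured in DRG, 6 above 0 and 2 below, with a median log2 ratio of 0.13. Gpr56 (Adgrg1), a receptor of developing brain and of glial precursors, was the highest, at 29.6 FPKM contralaterally and 30 FPKM ipsilaterally. Gpr126 (Adgrg6), which Schwann cells need to form myelin, was at 11.7 and 14.2 FPKM, and the interval of its fold was 0.851 to 1.73. The 8 Schwann cell markers had a median log2 ratio of 0.14. Gpr124 (Adgra2), a receptor of blood vessel growth in the central nervous system, was at 2.77 and 4.31 FPKM (log2 ratio 0.49). Gpr123 (Adgra1), of the same subfamily, was at 1.76 FPKM contralaterally and 1.01 FPKM ipsilaterally (-0.46). Gpr125 (Adgra3), the other member of that subfamily, was at 7.56 and 8.31 FPKM (0.12). Gpr116 (Adgrf5), a receptor of endothelial and lung cells, was at 7.28 and 8.11 FPKM (0.14).

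In cord, 6 adhesion receptors were measured, and 5 of these were above 0, with a median log2 ratio of 0.47. Over all features measured in cord the median was 0.02. Gpr56 was at 22.9 FPKM contralaterally and 32.5 FPKM ipsilaterally (0.49). Its fold of 1.42 had an interval of 1.13 to 1.78, and it was the one adhesion gene that the authors' deposited table calls in cord (q = 0.0453). Gpr126 was at 1.21 and 2.26 FPKM (0.56), Gpr116 at 5.69 and 8.41 FPKM (0.49) and Gpr124 at 1.7 and 2.66 FPKM (0.44). These are genes known from glia and vessels. In cord 6 of the 8 endothelial markers were above 0, with a summed FPKM of 32.6 contralaterally and 46.1 ipsilaterally. Above 0 there too were 7 of the 8 satellite glia and astrocyte markers and 4 of the 8 oligodendrocyte lineage markers. Over all features measured in cord the share above 0 was 51.6%. The part of endothelial or glial cells in these differences was not tested. Gpr125 was at 4.87 and 5.11 FPKM, and Gpr123 at 14.2 and 12.6 FPKM, the highest adhesion gene after Gpr56.

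Neighbouring adhesion genes differed in level. On mm9 chromosome 17, Gpr115, Gpr111, Gpr110 and Gpr116 lie within 803 kb (42793839 to 43596506), and of these only Gpr116 was measured. Gpr97, known from leukocytes, was at 0.41 and 0.305 FPKM in DRG and listed at 0 in both cord libraries. Gpr98 (Adgrv1), the very large receptor of hair cells, did not pass 0.297 FPKM in any library.

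Of the class C receptors, Gpr158 was the member with the highest mean level in DRG. This receptor binds regulators of G protein signalling at the membrane of neurons. It was at 33.9 FPKM in contralateral and 41.2 FPKM in ipsilateral DRG (0.27) and at 18.4 and 15.2 FPKM in cord (-0.26), and neither difference was called. Gpr179, its relative known from retinal bipolar cells, was under 1 FPKM in DRG (0.967 contralaterally and 0.489 ipsilaterally). In cord Gpr179 was at 0.394 FPKM contralaterally and 1.19 FPKM ipsilaterally, a fold of 3.02 (interval 1.51 to 6.02) that the authors' deposited table calls (q = 0.0352). Its log2 ratio there was 0.65.

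Gpr3, Gpr6 and Gpr12 signal to raise cyclic AMP without an added ligand. Gpr3 was at 2.4 FPKM in contralateral and 2.04 FPKM in ipsilateral DRG, and at 2.62 and 2.28 FPKM in cord. Gpr12 was listed at 0 in both DRG libraries. In cord Gpr12 was at 5.6 FPKM contralaterally and 2.61 FPKM ipsilaterally (-0.87), an interval of the fold of 0.243 to 0.894 that the authors' deposited table leaves uncalled (q = 0.152). Gpr6 did not pass 0.062 FPKM.

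Of the 4 receptors that respond to protons, Gpr65, a receptor of immune cells, was higher ipsilaterally in both tissues. In DRG it was at 0.875 FPKM contralaterally and 2 FPKM ipsilaterally (log2 ratio 0.68), a fold of 2.28 with an interval of 1.1 to 4.74 that is not called. Gpr4, a receptor of endothelial cells, stayed at or below 0.772 FPKM, and Gpr132 at or below 0.137 FPKM.

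The receptors with lipid, metabolite or ion ligands were mostly at low levels, with 3 of 18 measured in DRG and 5 of 18 in cord. Gpr35, a receptor for which kynurenic acid is a reported ligand, was at 7.02 FPKM in contralateral and 4.78 FPKM in ipsilateral DRG (-0.47). The interval of its fold was 0.496 to 0.937, and the authors' deposited table leaves it uncalled (q = 0.162). Gpr139, which responds to aromatic amino acids, was at 4.02 and 4.38 FPKM. Gpr119, a receptor of fatty acid amides known from gut and pancreas, was at 0.961 and 2.29 FPKM (0.75), with an interval of 1.2 to 4.72 and no call. Gpr119 was listed at 0 in both cord libraries.

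Gpr17, which marks oligodendrocyte precursors on their way to myelination, was at 11.9 FPKM in contralateral and 13 FPKM in ipsilateral cord (0.11), and no higher than 0.17 FPKM in DRG. The precursor marker Pdgfra was close between the cord sides too, at 11.2 and 13.3 FPKM. Gpr84, a receptor of medium-chain fatty acids in myeloid cells, was at 0.452 FPKM contralaterally and 1.7 FPKM ipsilaterally in cord (0.90). Its interval of 1.19 to 12 did not lead to a call in the authors' deposited table (q = 0.163). Gpr183, the oxysterol receptor that guides lymphocytes, was at 0.163 and 0.759 FPKM in cord, and Gpr18, which shares its entry, was at 0.66 FPKM contralaterally and listed at 0 ipsilaterally. Neither reached 1 FPKM.

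Among the receptors with peptide or protein ligands, Gpr37 had the highest level of any member. Gpr37 binds the secreted protein prosaposin, by several reports, and is abundant in oligodendrocytes. It was at 85.7 FPKM in contralateral and 64.9 FPKM in ipsilateral cord (-0.39), an interval of the fold of 0.541 to 1.06. In DRG it was at 6.3 FPKM contralaterally and 3.51 FPKM ipsilaterally (-0.70), an interval of 0.355 to 0.872 that the authors' deposited table leaves uncalled (q = 0.114). Gpr75 was at 2.37 and 2.99 FPKM in DRG and at 1.72 and 3.62 FPKM in cord (0.77), with no call. Gpr83, a brain receptor with a peptide ligand, was at 3.09 FPKM in contralateral and 2.05 FPKM in ipsilateral cord (-0.42).

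Of the 9 proteins with a Gpr name that are not established receptors, all were measured in both tissues, and most belong to the Golgi or lysosome. In DRG 4 were above 0 and 5 below, with a median of -0.02 and none past 2-fold. In cord 2 were above 0 and 7 below, with a median of -0.36, and again none was past 2-fold or called. Gpr89, a channel-like protein that sets the pH of the Golgi, was at 25.1 and 21.5 FPKM in DRG and at 12.5 and 8.82 FPKM in cord. Gpr107, a Golgi protein, was at 16.3 and 19.1 FPKM in DRG and at 13.4 and 14.9 FPKM in cord. Gpr155, a lysosomal protein, was at 15.4 FPKM contralaterally and 9.75 FPKM ipsilaterally in cord (-0.61), an interval of the fold of 0.436 to 0.924.

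The Gpr137 trio of lysosomal proteins split in cord. Gpr137 was at 21.1 FPKM contralaterally and 33.2 FPKM ipsilaterally (0.63), while Gpr137c was at 17.6 and 9.54 FPKM (-0.82) and Gpr137b at 8.4 and 5.38 FPKM (-0.56). The authors' deposited table calls none of the 3, with q = 0.105 for Gpr137 and 0.0779 for Gpr137c. The entry of Gpr137 is shared with Bad, a cell death gene, which was at 12.7 and 13.1 FPKM, and Gpr137b has a pseudogene copy in the tables, so its reads may be split. In DRG the order differed, with Gpr137 at 17.7 and 14.2 FPKM, Gpr137c at 11.6 and 10.6 FPKM and Gpr137b at 10.8 and 14.2 FPKM.

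The remaining 33 genes are class A receptors that in most cases have no established ligand, and 18 were measured in DRG and 23 in cord. Beside Gpr151, Gpr19, Gpr153, Gpr85 and Gpr62, the DRG values included Gpr161, a receptor of the primary cilium that restrains Hedgehog signalling, at 9.43 FPKM contralaterally and 6.34 FPKM ipsilaterally (-0.51). Gpr149 was at 8.14 and 6.05 FPKM (-0.37) and Gpr176 at 3.7 and 2.93 FPKM (-0.26). Gpr26 was at 1.82 and 0.977 FPKM (-0.51) and Gpr135 at 3.46 and 2.92 FPKM (-0.19). None of these 5 was called. Gpr160 was at 0.973 FPKM contralaterally and 1.87 FPKM ipsilaterally in DRG (0.54), with an interval of 1.03 to 3.58 and no call.

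In ipsilateral cord the members as a whole lay slightly to the lower side. Their median log2 ratio was -0.14, beside 0.02 over all 13351 measured features, and 30 of 51 were below 0. Above 0 were 41.2% of the measured members and 51.6% of all measured features. At least 2-fold higher were 3 of 51 (5.88%), near the 4.46% of all measured features. At least 2-fold lower was 1 of 51 (1.96%), near the 1.64% of all measured features. The authors' deposited table calls 6 of the 63 members it tested higher, and 4.52% of all features tested. It calls 1 member lower, and 1.55% of all features tested. The genes called higher were Gpr55, Gpr25, Gpr160, Gpr65, Gpr179 and Gpr56.

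**Figure D3:**
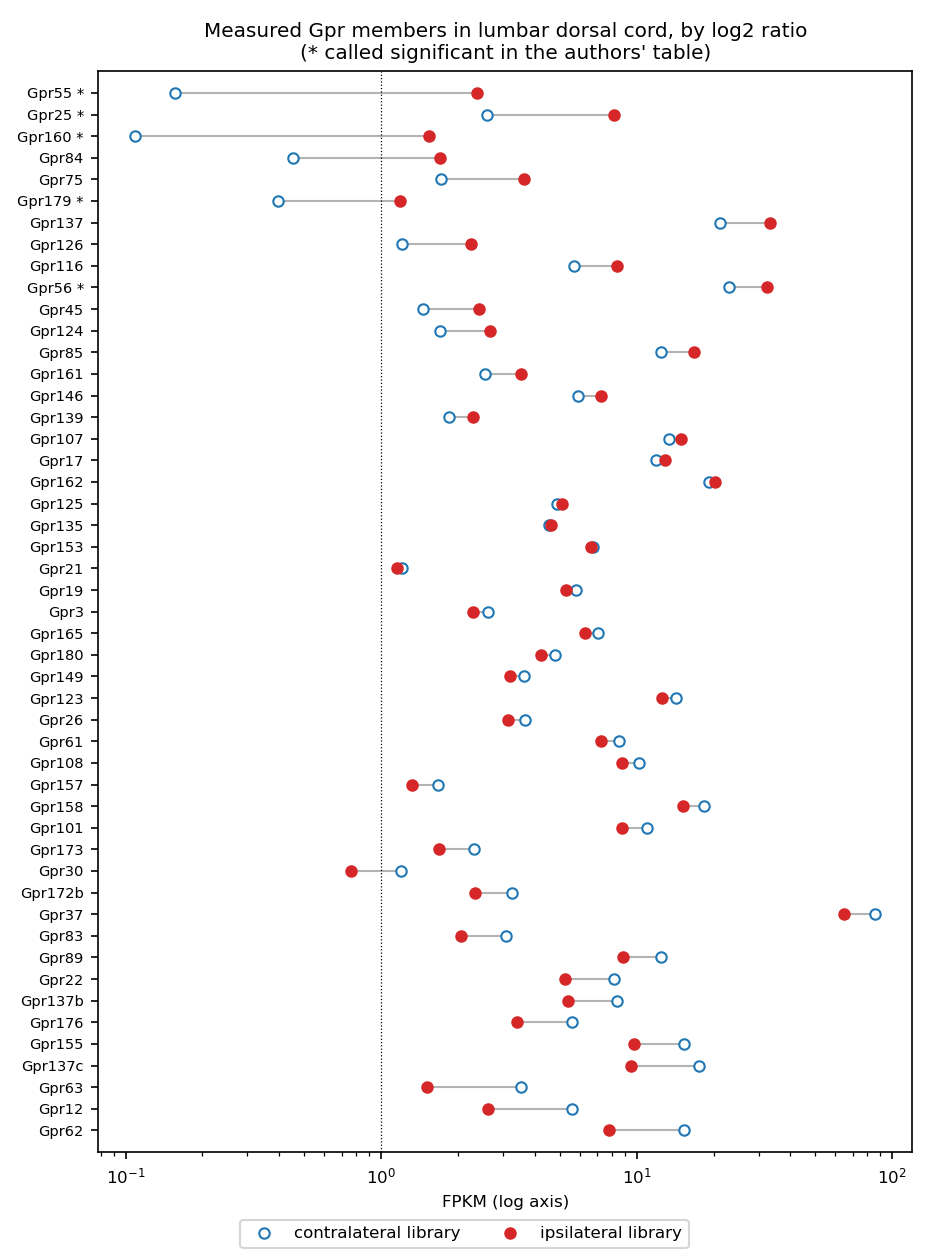
Deposited FPKM (log axis) of 49 members measured in dorsal cord, one row per gene, ordered by log2 ratio, with open circles for the contralateral and filled circles for the ipsilateral library and an asterisk for a call in the authors' table. Gpr55 and Gpr160 start from 0.156 and 0.109 FPKM contralaterally, while the highest gene, Gpr37, lies at 85.7 and 64.9 FPKM.

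The promoter sequences of the 4 members with the largest called log2 ratios in cord are printed here. Each is the 250 bases before the RefSeq gene start (build GRCm38.p6, which is not the mm9 build of the expression tables), read 5′ to 3′ on the strand of the gene. Capitals mark GAGGAAG on either strand, a core of sites bound by the myeloid transcription factor PU.1, so the reverse strand reads CTTCCTC.
Gpr55, chr1:85961056-85961305, minus strand: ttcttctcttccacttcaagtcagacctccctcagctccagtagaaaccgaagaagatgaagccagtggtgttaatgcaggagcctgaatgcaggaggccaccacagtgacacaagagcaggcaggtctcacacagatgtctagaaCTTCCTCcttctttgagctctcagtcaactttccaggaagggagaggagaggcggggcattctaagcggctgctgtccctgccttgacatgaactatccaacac
Gpr65, chr12:98268385-98268634, plus strand: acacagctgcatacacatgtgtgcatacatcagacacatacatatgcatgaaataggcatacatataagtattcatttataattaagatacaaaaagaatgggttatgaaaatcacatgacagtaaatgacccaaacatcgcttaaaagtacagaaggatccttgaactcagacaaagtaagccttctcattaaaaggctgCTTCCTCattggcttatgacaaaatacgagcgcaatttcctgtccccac
Gpr25, chr1:136260927-136261176, minus strand: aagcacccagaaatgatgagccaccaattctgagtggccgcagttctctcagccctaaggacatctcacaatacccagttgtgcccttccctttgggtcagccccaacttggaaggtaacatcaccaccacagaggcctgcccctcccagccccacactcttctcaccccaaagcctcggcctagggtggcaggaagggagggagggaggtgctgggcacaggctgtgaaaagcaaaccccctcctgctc
Gpr160, chr3:30855700-30855949, plus strand: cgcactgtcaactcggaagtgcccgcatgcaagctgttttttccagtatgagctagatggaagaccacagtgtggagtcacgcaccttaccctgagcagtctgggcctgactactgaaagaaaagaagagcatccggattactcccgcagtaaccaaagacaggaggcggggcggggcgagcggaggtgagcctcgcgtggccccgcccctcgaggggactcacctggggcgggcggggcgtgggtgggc
Gpr55 and Gpr65 each hold 1 copy, beginning 104 and 49 bases before the start, and these letters are not in the windows of Gpr25 and Gpr160. The 4 genes were picked by their cord values, and the motif was chosen after the values were seen. Whether the motif has a part in these differences was not tested. In windows of these 250 bases the motif was found in 12.0% of all 27025 genes with a window. It was found in 9 of the 67 members that have one. The 9 include Gpr77, called in DRG, and Gpr35, Gpr137 and Gpr137c, called in neither tissue. A match is a description of letters, not a site. The AP-1 motif TGACTCA (on either strand) was found in 4 of the 67 members. Of the members called in either tissue that have a window, only Gpr56 had it. Gpr151 and Gpr133, called in DRG, have no window and were not searched. The windows of Gpr19, Gpr85, Gpr153, Gpr77, Gpr62 and Gpr64, called in DRG, do not hold those letters. Of all genes with a window, 5.16% had TGACTCA.

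Gpr55, a receptor for the lipid lysophosphatidylinositol, had the highest log2 ratio of the members in cord. It was at 0.156 FPKM contralaterally and 2.38 FPKM ipsilaterally, a log2 ratio of 1.55. Its fold of 15.3 had an interval of 4.66 to 50, with q = 0.000693 in the authors' deposited table. In DRG it was at 0.228 and 0.125 FPKM, under the level that counted as measured. Few fragments lie behind such values. The authors' error for Gpr55 in cord is the one that counting 2.97 contralateral and 33.6 ipsilateral fragments would give.

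Gpr65 was at 0.022 FPKM in contralateral and 0.985 FPKM in ipsilateral cord, just under the level that counted as measured. The authors' deposited table calls it (q = 0.0132). Its fold of 44.5 has an interval of 5.48 to 361, and the error is that of 0.903 contralateral and 29.8 ipsilateral fragments, so the size of the fold is poorly known. Gpr160, a receptor without an agreed ligand, was at 0.109 FPKM contralaterally and 1.54 FPKM ipsilaterally (log2 ratio 1.20), a fold of 14.1 with an interval of 3.03 to 65.8 (q = 0.0204 in the authors' deposited table). Its error is that of 1.78 contralateral and 18.6 ipsilateral fragments. Both genes were also higher in the ipsilateral DRG library, without a call there.

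Beside these values stand those of the myeloid list in cord, where all 10 markers were above 0 and 9 passed 2-fold. The list had a median of 1.86 and no marker at 0 in either library. The part of myeloid cells in the differences of Gpr55, Gpr65, Gpr84 and Gpr160 was not tested. T and B cell markers summed to 1.22 FPKM contralaterally and 0.699 FPKM ipsilaterally, with 6 of 10 listed at 0 contralaterally and 4 of 10 ipsilaterally.

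Gpr25, a class A orphan receptor known from T cells, was at 2.59 FPKM in contralateral and 8.12 FPKM in ipsilateral cord, a log2 ratio of 1.35. The fold of 3.14 had an interval of 1.66 to 5.95 (q = 0.0145 in the authors' deposited table). In DRG it was listed at 0 contralaterally and at 0.083 FPKM ipsilaterally. Its cord level was thus above that of any T and B cell marker, none of which reached 1 FPKM. Its mm9 position is chromosome 1, from 138155490 to 138157450.

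In cord Gpr62 was at 15.3 FPKM contralaterally and 7.78 FPKM ipsilaterally (-0.89), an interval of 0.309 to 0.833 without a call (q = 0.0822 in the authors' deposited table). Oligodendrocyte lineage markers were close between the cord sides, with a median log2 ratio of 0.03 and a summed FPKM of 3793 and 3911. Pcbp4, whose entry includes Gpr62, was at 23.2 and 33.2 FPKM, the opposite direction to Gpr62. The number of members lower by 2-fold was 0 at a pseudocount of 3 FPKM and 3 at 0.1 FPKM, beside 0.607% and 3.60% of all measured features.

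Of the 23 other class A or unassigned receptors measured in cord, 8 were above 0 and 15 below, with a median log2 ratio of -0.14. Gpr63 was at 3.54 FPKM contralaterally and 1.51 FPKM ipsilaterally (-0.85), Gpr22 at 8.16 and 5.24 FPKM (-0.55) and Gpr176 at 5.58 and 3.41 FPKM (-0.58), none of them called. In the other direction, Gpr45 was at 1.46 FPKM contralaterally and 2.42 FPKM ipsilaterally (0.47), also without a call. Gpr101, a receptor that raises cyclic AMP and is known from the hypothalamus, was at 11 and 8.8 FPKM (-0.29), and the interval of its fold, 0.545 to 1.17, included 1. Gpr162 was the highest of these 23 receptors in cord and was close between sides, at 19.2 and 20.2 FPKM. Gpr85 followed at 12.5 and 16.8 FPKM (0.40), and Gpr61 was at 8.52 and 7.28 FPKM. Dorsal horn neuron markers had 5 of 7 measured genes below 0, a median of -0.15 and a summed FPKM of 2205 contralaterally and 2006 ipsilaterally. The part of neurons in these differences was not tested.

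The DRG and cord libraries are separate, so the 2 comparisons share no library, but whether the tissues came from the same mice is not given. Of the 38 members measured in both tissues, 11 were above 0 in both and 14 below 0 in both, so 65.8% had the same sign. Over the 12229 features measured in both tissues the share was 51.5%. The members above 0 in both tissues included the adhesion genes Gpr56, Gpr116, Gpr124, Gpr125 and Gpr126, and also Gpr85 and Gpr160. Those below 0 in both included Gpr62, Gpr37, Gpr155, Gpr137c and Gpr176.

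**Figure D4:**
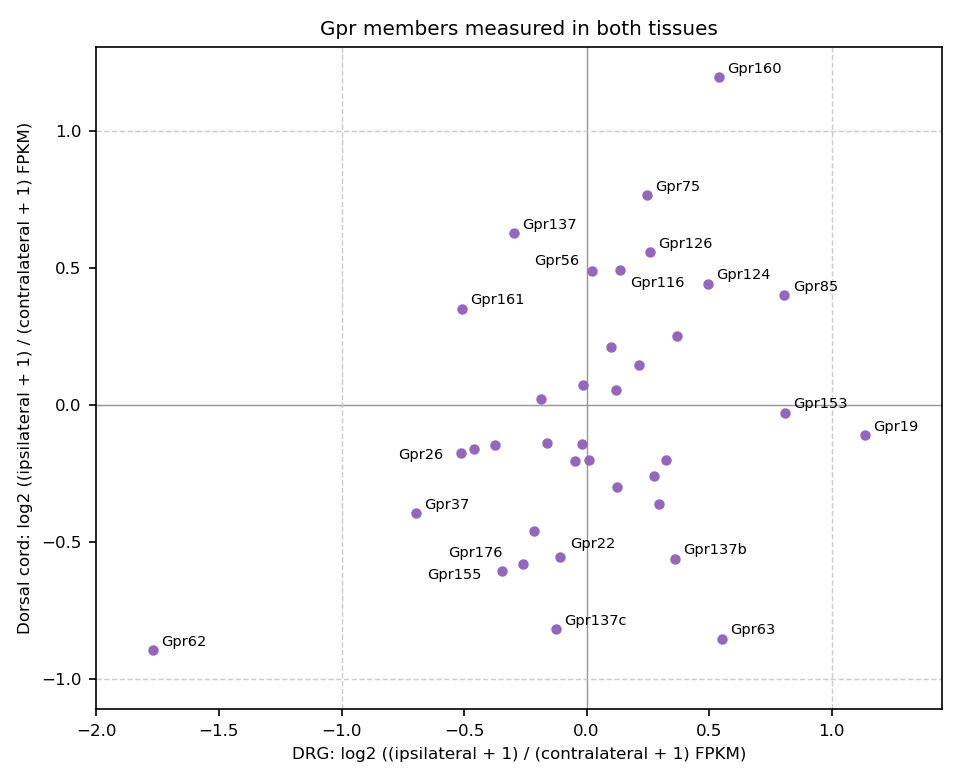
Log2 ratio of ipsilateral over contralateral FPKM (each + 1) in DRG on the horizontal and in dorsal cord on the vertical axis, one point for each of 37 members measured in both tissues, with dashed lines at 2-fold; members past about 0.5 in either tissue are named. Gpr62 lies low on both axes (-1.77 and -0.89), Gpr160 high on both (0.54 and 1.20), and Gpr63 is high in DRG (0.55) and low in cord (-0.85).

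The 2 contralateral libraries show where each gene was found away from the cut side. The tables may have been normalised separately, so these ratios between tissues are approximate. Of 51 members at 1 FPKM or more in either contralateral library, 6 were at least 2-fold higher in DRG (11.8%), near the 13.1% of all features measured this way. By contrast 14 were at least 2-fold lower in DRG than in cord (27.5%, beside 15.5% of all features). At a pseudocount of 3 FPKM the number lower in DRG was 9, and at 0.1 FPKM the number higher in DRG was 10.

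The genes higher in DRG included Gpr64 at 19 FPKM in DRG and 0.888 FPKM in cord, Gpr35 at 7.02 and 0.151 FPKM, Gpr126 at 11.7 and 1.21 FPKM, Gpr161 at 9.43 and 2.54 FPKM, and Gpr133. These include a Schwann cell receptor (Gpr126), and the Schwann cell marker Egr2 was present in DRG and listed at 0 in contralateral cord. The genes higher in cord were led by Gpr37 at 85.7 FPKM in cord and 6.3 FPKM in DRG, Gpr101 at 11 and 0.029 FPKM and Gpr17 at 11.9 and 0.14 FPKM. By the size of the ratio Gpr12 came next, at 5.6 FPKM in cord and listed at 0 in DRG. Gpr123, Gpr162, Gpr165 and Gpr62 were at 14.2, 19.2, 7.06 and 15.3 FPKM in cord and at 1.76, 2.99, 0.714 and 3.09 FPKM in DRG. Gpr25, Gpr22, Gpr45 and Gpr83 were also among the 14. Of the 3 members at least 2-fold higher in ipsilateral DRG, Gpr133 was on the DRG side of this comparison, while Gpr151 was under 1 FPKM in both contralateral libraries and Gpr19 did not differ by 2-fold between tissues.

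**Figure D5:**
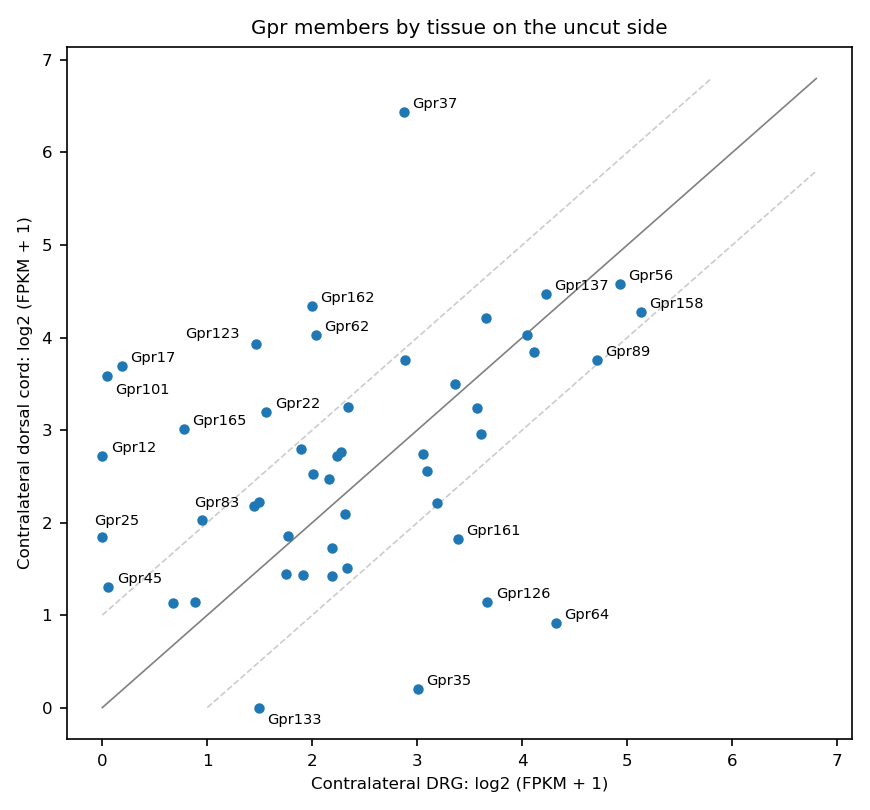
Contralateral level in DRG (horizontal) and in dorsal cord (vertical), each as log2 of FPKM + 1, for 48 members at 1 FPKM or more in either; the solid line marks equal levels and the dashed lines a 2-fold difference. Gpr37, Gpr17 and Gpr101 lie far to the cord side, and Gpr64, Gpr35 and Gpr126 to the DRG side.

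The signalling partners of these receptors were compared between sides in the same way. Of 63 genes for G protein subunits, receptor kinases, arrestins, RGS proteins (which switch G proteins off) and adenylyl cyclases, 56 were measured in DRG. Their median log2 ratio was -0.02, with none higher by 2-fold and 1 lower. That gene was Gng8, a G protein gamma subunit gene, at 15.7 FPKM contralaterally and 4.76 FPKM ipsilaterally (-1.53). Of the 57 that it tested in DRG, the authors' deposited table calls 2 higher and 3 lower, where over all features tested it calls 4.64% higher and 1.9% lower. Those called lower were Gng8 and the RGS genes Rgs9 at 4.19 and 1.67 FPKM (-0.96) and Rgs6 at 13.2 and 6.76 FPKM (-0.87). In cord 57 were measured, with a median of -0.06 and none past 2-fold. Of the 59 partners tested in cord, the authors' deposited table calls 1 higher and 0 lower. Over all features tested in cord it calls 4.52% higher and 1.55% lower. The gene called in cord was the receptor kinase gene Grk6, which was called higher in DRG too. Grk6 was at 23.1 and 35.4 FPKM in DRG (0.60) and at 12.9 and 23.1 FPKM in cord (0.79).

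For 15 members the authors' entry covers other features as well, so overlapping reads may be divided among them. Gpr171 shares an entry with the purine receptor genes P2ry12, P2ry13 and P2ry14 on chromosome 3, and it was at most 0.097 FPKM, while P2ry12 was at 8.63 and 30.2 FPKM in cord. Gpr146 and Gpr30 share an entry on chromosome 5. Gpr146 was at 5.92 FPKM in contralateral and 7.23 FPKM in ipsilateral cord, and Gpr30, the estrogen receptor Gper1, at 1.2 and 0.76 FPKM. The strand setting of the counting is not stated, so reads from overlapping genes on opposite strands cannot be told apart.

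The 36 members under 1 FPKM throughout reached at most 0.997 FPKM (Gpr27 in contralateral cord). Gpr77 was the only one of them with a call in DRG, and Gpr65 is not among them, since it reached 2 FPKM in ipsilateral DRG. Gpr182, a receptor of endothelial cells, was at 0.0272 FPKM in contralateral and 0.697 FPKM in ipsilateral cord, and its fold of 25.6 had an interval of 2.99 to 219 (q = 0.0503 in the authors' deposited table, not called). In DRG the same gene was at 0.666 and 0.622 FPKM, so its sides were close. Gpr141, a class A orphan receptor, was at 0.118 and 0.498 FPKM in DRG, an interval of the fold of 1.52 to 11.7 without a call (q = 0.0743), and was listed at 0 in both cord libraries.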

How the data were processed

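The tools TopHat 1.4.0 and Cuffdiff 1.3.0 and the mouse build mm9 are named in the submitters' processing notes. For the annotation, filters and strand setting: not given in the sources used here. Both deposited tables, per the file headers, hold FPKM per library, p-values and q-values, a test statistic (a score, the log2 fold over its standard error) and a call at q up to 0.05, with 1 table per tissue. The p-values compare 1 library with 1 library.

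From these the log2 ratio with a pseudocount of 1 FPKM, the plain fold and its 95% interval were computed in Python 3.11.15 with pandas 2.3.3. The ratio step was tested on simulated data. No test was run, since each group has 1 library. The absolute depth is not given. From genes with the error of 1 read against 1 read, the FPKM value of a read on the ipsilateral over the contralateral side was 0.639 in DRG (50 of 51 such genes) and 1.35 in cord (20 of 20). The fragment numbers in the text follow from this and the authors' error, and cover counting only.

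The members and the lists (roles, markers, partners) were chosen with earlier results of these data known. Values are given for members past 2-fold or called, the 10 highest per tissue and up to 4 per role. Some genes are not reported here, though the counts include them; the figures leave out such members. Others were named after their values were seen. Promoters come from RefSeq, which had a window for 67 of the 94 members. The number of other columns of per-sample values left out was 0.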

Additional observations from a re-analysis of the deposited data

Results flagged for a closer look

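Gpr63, a class A orphan receptor, was the member measured in both tissues whose log2 ratio passed 0.5 in opposite directions. It was at 1.73 FPKM contralaterally and 2.99 FPKM ipsilaterally in DRG (log2 ratio 0.55) and at 3.54 and 1.51 FPKM in cord (log2 ratio -0.85). The authors' deposited tables call neither (q = 0.359 in DRG and 0.169 in cord). The difference between the tissues was not tested.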

How the results depend on the processing

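With 1 library per group, no library can be left out, and no paired analysis was possible because the labels give no replicate numbers. For counts and medians, 50 values under another setting stayed close to the reported ones and 14 moved. For 58 differences of single members, 230 values moved by less than the authors' 95% error and 2 by more, both at a pseudocount of 0.1 FPKM, Gpr62 in DRG (-3.41) and Gpr55 in cord (3.28). At 0.1 FPKM, 5 of 45 members were at least 2-fold higher in DRG, beside 5.17% of all measured features. In cord 6 of 51 were higher and 3 lower, beside 7.22% and 3.60% of all measured features. The contralateral comparison then had 10 members higher in DRG. At 3 FPKM, 0 members were lower in DRG, beside 0.335% of all measured features. In cord 0 were higher and 0 lower, beside 1.98% and 0.607%. At this setting 9 were lower in contralateral DRG than in cord. A filter at 5 FPKM left 0 of 23 members lower in DRG, beside 0.725% of all features kept, with a median of 0.14. In cord it left 1 of 27 higher and 0 lower, beside 3.79% and 1.32%. With no filter the cord median was 0.00. Leaving out members with a shared entry, an alternative chosen after seeing the data, gave 0 lower in DRG. The cause of these shifts was not tested beyond the construction of each setting. Rescaling by the median moved all genes by -0.06 on the log2 scale in DRG and -0.02 in cord, and the DRG median of members was then -0.03.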

Other observations

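Genes whose names resemble those of the receptors but fall outside the naming rule did not pass 2-fold between sides where measured. In DRG, 6 of 11 were measured, with a median log2 ratio of -0.23. Gprasp2, which encodes a protein that sorts receptors for breakdown, was at 32.8 FPKM contralaterally and 16.9 FPKM ipsilaterally (log2 ratio -0.91) and is called lower in the authors' deposited table. Its relative Gprasp1 was at 87.7 and 60.6 FPKM (-0.53) and is not called. In cord, 7 of 11 were measured, with a median of -0.02. Gpr37l1, a receptor of astrocytes related to Gpr37, was at 84.4 and 51.4 FPKM (-0.70) without a call.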
